A study of Homo sapiens with 6 samples.

Results

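Transcripts of 10 genes encoding receptors of the tumour necrosis factor (TNF) receptor superfamily were followed in PC3 cells treated with RSM3. The members were chosen by gene name, and all 10 were found among the 60545 genes of the count table: TNFRSF10A, TNFRSF10B, TNFRSF10C, TNFRSF10D, TNFRSF1A, TNFRSF1B, TNFRSF12A, TNFRSF21, FAS and CD40. PC3 is an established prostate cancer cell line obtained originally from a metastasis in bone. RNA sequencing was performed on 3 libraries of RSM3-treated cells and 3 libraries of Control cells, all grown in RPMI-1640 medium with fetal bovine serum, penicillin and streptomycin. The series title calls RSM3 a peptide, and its dose, the length of exposure and what the Control cells received are not stated in its labels. Whether the 3 libraries of a group came from separate cultures is not stated either, so p-values measure the spread between these libraries, which may be technical.

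Receptors of this family sit in the plasma membrane as trimers or form them on ligand binding, and pass the signal on through the part inside the cell. Those with a death domain can recruit adaptors such as FADD and TRADD and, through them, caspase-8. Others bind TRAF adaptors directly and lead mainly to NF-κB and kinase signalling. Only 5 of the 10 members carry a full death domain, namely TNFRSF10A and TNFRSF10B, which bind the ligand TRAIL, TNFRSF1A, the main TNF receptor, FAS, the receptor of Fas ligand, and TNFRSF21, also called death receptor 6. The other 5 do not: TNFRSF10C and TNFRSF10D are decoys for TRAIL, TNFRSF1B is the TNF receptor best known from leukocytes, TNFRSF12A (Fn14) binds TWEAK, and CD40 binds CD40 ligand. The set is therefore wider than the death receptors in the strict sense.

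Libraries held 14091359 to 18594251 counts, of which the 10 genes together took 0.0767% to 0.0866%. Some libraries stood apart from the rest. When each gene's distance from its 6-library mean (log2) was set against transcript GC content, the Spearman coefficient over the tested genes was 0.42 in RSM3 replicate 1, against −0.32 and −0.29 in the other RSM3 libraries and −0.21 to 0.16 in Control (a description, since genes are not independent). The tropomyosin gene TPM1 had 102 and 109 CPM, counts scaled to the size of the library, in Control replicates 1 and 2 and 29.4 to 31.5 CPM in the other 4 libraries. Epithelial keratin genes were abundant, whereas the prostate genes KLK2 and KLK3 were at or near 0. Markers of leukocytes, in which CD40, FAS and TNFRSF1B are well known, summed to 2.42 to 5.81 CPM in Control and 2.71 to 3.43 CPM in RSM3, and 5 of the 14, MS4A1 among them, had no count in any library. Other marker genes were not at 0: KDR, listed as endothelial, fell from 208 to 143 CPM (edgeR adjusted p = 0.00977), COL1A1, listed as fibroblast, was at 88.3 and 73.5 CPM, and TMPRSS2, listed as prostate luminal, rose from 49.8 to 74.7 CPM (adjusted p = 0.00150). Their part in the results was not tested. In bulk RNA, fewer cells with a transcript and less of it per cell cannot be told apart.

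The receptors covered a wide range of transcript levels. Levels of different genes were compared as CPM per kilobase of annotated exon. That length merges the exons of all annotated transcripts of a gene. Which transcripts were present was not examined, so the order of genes depends on these lengths. In Control, TNFRSF21 was the most abundant at 105 ± 2.82 CPM per kilobase (mean ± SD, n = 3 here and throughout), followed by TNFRSF12A at 46.9 ± 4.80, TNFRSF1A at 32.5 ± 1.06, TNFRSF10B at 24.6 ± 1.22 and TNFRSF10A at 10.0 ± 0.208. Neighbours in this order did not overlap in any library of the group. CD40 followed at 2.26 ± 0.197 CPM per kilobase, and FAS, TNFRSF1B and TNFRSF10C were below it at 0.838 ± 0.427, 0.652 ± 0.237 and 0.395 ± 0.149. FAS overlapped with TNFRSF1B, and TNFRSF1B with TNFRSF10C, so the order within these low genes was not resolved. TNFRSF10D was the lowest, with 0, 0 and 3 counts in the Control libraries.

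In RSM3 the order was the same but for a single exchange. TNFRSF10B, at 37.0 ± 0.681 CPM per kilobase, stood above TNFRSF1A, at 29.4 ± 4.13, and the 3 values of each gene did not overlap (36.4 to 37.8 against 26.6 to 34.1). Before division by length, these genes overlapped in Control (TNFRSF10B 120 to 133 CPM, TNFRSF1A 126 to 134). In RSM3 they were apart (188 to 195 against 106 to 137 CPM). The clear Control order, and with it the exchange, thus rests on the lengths used. TNFRSF21 held 47.1 ± 0.812% of the summed per-kilobase level of the 10 genes in Control and 42.4 ± 2.78% in RSM3, and TNFRSF10B 11.0 ± 0.783% and 14.8 ± 0.867%. Genes with a full death domain made up 77.6 ± 1.55% of the sum in Control and 73.6 ± 2.61% in RSM3. Their shares did not overlap between the groups, but RSM3 replicate 1 and the lowest Control library were both at 76.4% after rounding. The sum itself was 223 ± 5.46 CPM per kilobase in Control and 250 ± 14.5 in RSM3, so a smaller share need not mean a lower level. TNFRSF21, for example, was at 105 ± 2.82 CPM per kilobase in Control and 106 ± 13.1 in RSM3.

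**Figure D1:**
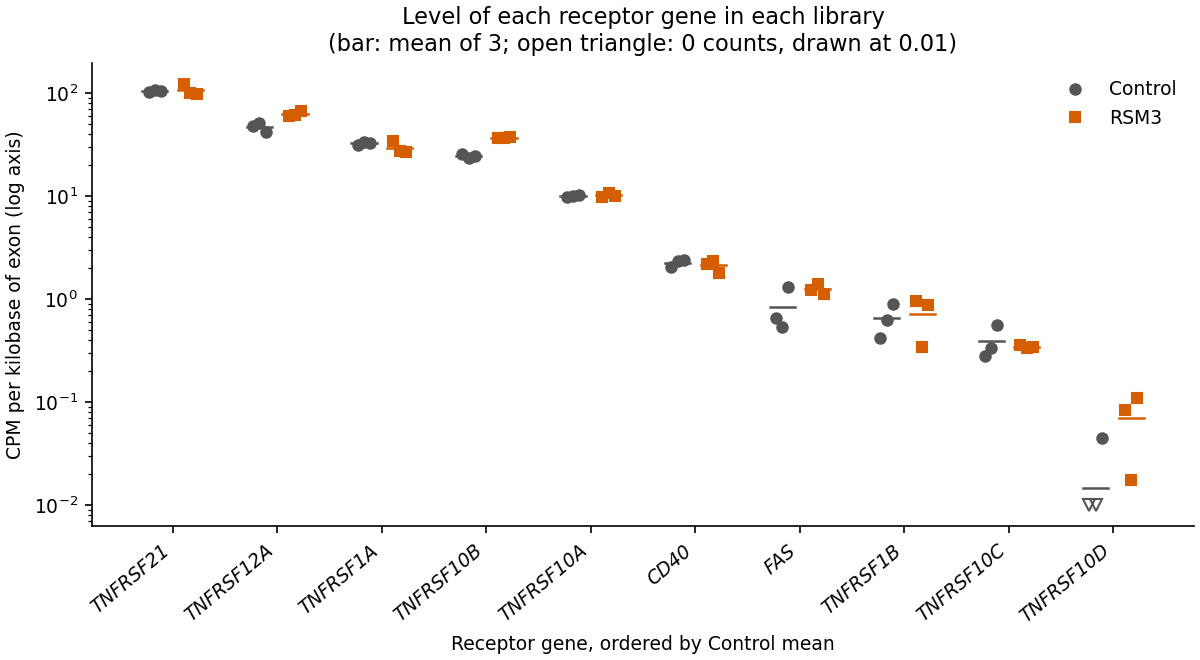
Level of each receptor gene in each library, as CPM per kilobase of exon on a log axis, with genes ordered by their Control mean; circles are Control, squares RSM3, short bars the mean of 3 libraries and open triangles libraries with 0 counts. TNFRSF21 is highest at about 105 CPM per kilobase in both groups, and on this per-length scale TNFRSF10B passes TNFRSF1A in RSM3.

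Promoter windows of RefSeq (GRCh38.p14) ran from 250 bases before to 50 after an annotated start. The 4 TRAIL receptor genes, TNFRSF10A to TNFRSF10D, were left out of the promoter search, so their promoters were not examined. Of the other 6 members, windows were matched by symbol for 4, namely FAS, TNFRSF1A, TNFRSF1B and TNFRSF21. The windows of the 3 death domain receptors among them are shown, since their transcripts ran from the most abundant of the set to one of the rarest. All are written 5′ to 3′ on the strand of the gene. Capitals mark matches, on either strand, to an NF-κB consensus, to an AP-1 motif (TGANTCA), to an SP1 motif (GGGCGG) or to a TEAD motif (GGAATG). The windows lie at chr6:47309856-47310155 (minus strand) for TNFRSF21, chr12:6342027-6342326 (minus strand) for TNFRSF1A and chr10:88990548-88990847 (plus strand) for FAS.
TNFRSF21: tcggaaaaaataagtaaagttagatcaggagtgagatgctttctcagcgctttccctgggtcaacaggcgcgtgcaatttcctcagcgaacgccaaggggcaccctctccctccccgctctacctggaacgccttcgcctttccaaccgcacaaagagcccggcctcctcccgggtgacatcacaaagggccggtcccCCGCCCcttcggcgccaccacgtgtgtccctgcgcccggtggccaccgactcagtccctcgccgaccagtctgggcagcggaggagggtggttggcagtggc
TNFRSF1A: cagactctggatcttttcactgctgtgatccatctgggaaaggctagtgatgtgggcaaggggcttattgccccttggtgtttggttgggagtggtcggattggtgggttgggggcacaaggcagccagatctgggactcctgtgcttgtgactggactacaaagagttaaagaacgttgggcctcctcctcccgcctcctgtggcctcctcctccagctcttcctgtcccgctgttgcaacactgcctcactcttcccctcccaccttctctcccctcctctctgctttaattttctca
FAS: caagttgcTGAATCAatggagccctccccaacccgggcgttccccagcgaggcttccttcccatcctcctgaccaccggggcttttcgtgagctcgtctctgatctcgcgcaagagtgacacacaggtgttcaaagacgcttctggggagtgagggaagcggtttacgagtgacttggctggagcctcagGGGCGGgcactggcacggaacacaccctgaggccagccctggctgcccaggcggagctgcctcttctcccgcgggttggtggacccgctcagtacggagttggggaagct
The SP1 letters were found in the windows of TNFRSF21 and FAS, as in 45.0% of all 35116 promoter windows of the same length, and the AP-1 letters in that of FAS, as in 7.71% of all. TNFRSF1A had no match to any of the 4 motifs. No printed window matched the NF-κB consensus, which 11.3% of all windows hold, although another of the 3 FAS windows did, and none held the TEAD letters, against 14.0% of all. None of these 3 genes passed the test described next, so no change is attached to these sequences.

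The comparison of RSM3 with Control asked which receptor transcripts change under the peptide. TNFRSF10B and TNFRSF12A rose, and no member fell. Of the 10 members, 9 passed the filter on low counts, and TNFRSF10D did not. A gene was called at an adjusted p under 0.05 (edgeR quasi-likelihood test, Benjamini-Hochberg adjustment over 15773 genes). Against 2 of 9 members called, 4.20% of all tested genes were called, 3.09% higher and 1.10% lower in RSM3. The RSM3 and Control libraries did not overlap for 2 of the 9, or 22.2%, close to the 23.9% found among all tested genes. The median log2 fold change of the 9 was 0.03, against −0.0048 over all tested genes.

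**Figure D2:**
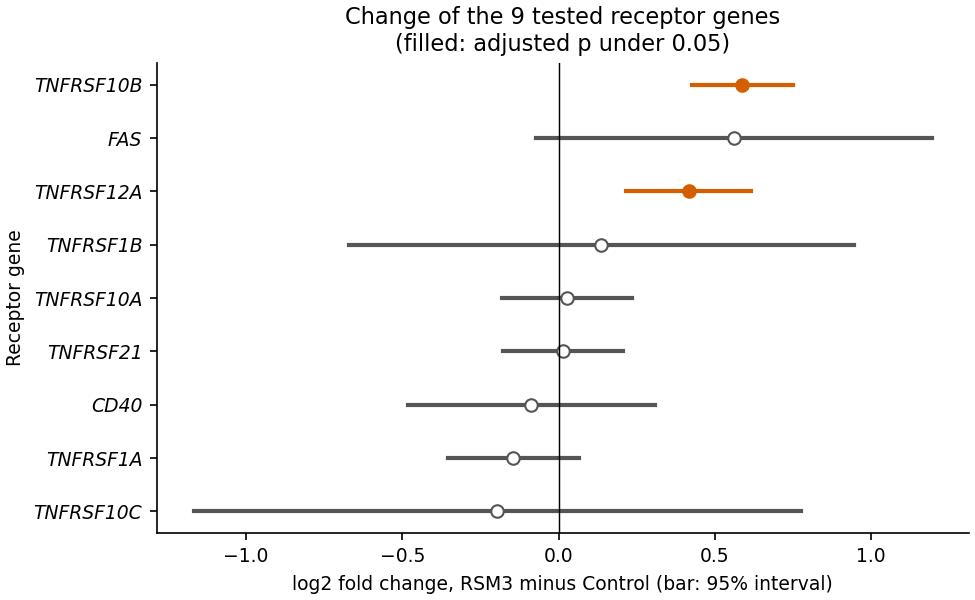
Log2 fold change (RSM3 minus Control) of the 9 tested receptor genes, with bars for the 95% interval and filled symbols for an adjusted p under 0.05. TNFRSF10B (0.59) and TNFRSF12A (0.42) are filled, and the intervals of FAS, TNFRSF1B and TNFRSF10C are the widest.

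Among the TRAIL receptors, TNFRSF10B rose 1.5-fold while TNFRSF10A stayed close to its Control level. TNFRSF10B, or DR5, was at 133, 120 and 128 CPM in Control replicates 1 to 3 and at 191, 188 and 195 CPM in RSM3, from 2114 to 3022 counts per library. Every RSM3 library was thus above every Control library, and the 3 RSM3 values lay close together. The log2 fold change was 0.59 ± 0.08 (SE), a 1.5-fold rise with a 95% interval of 1.34 to 1.68 (edgeR adjusted p = 0.000816), with rank 52 by p among the 15773 tested genes. The gene was called in 15 of 16 other settings, with log2 fold changes of 0.53 to 0.62. The exception was the fit with a term for Control replicates 1 and 2, which in effect compares RSM3 with Control replicate 3 alone (log2 fold change 0.58, adjusted p = 0.0546), where 0.748% of all genes were called.

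TNFRSF10A, or DR4, the other TRAIL receptor that carries a death domain, was at 28.8, 29.7 and 30.0 CPM in Control and 29.1, 31.6 and 29.6 CPM in RSM3. The groups overlapped, and the 95% interval of the fold change, 0.883 to 1.18, did not reach the lower bound of TNFRSF10B (adjusted p = 0.920). Of the decoys, TNFRSF10C, which is anchored to the membrane by a lipid, had 9, 11 and 20 counts in Control and 9, 10 and 10 in RSM3. At these counts a fold change between 0.445 and 1.71 could not be told from no change (95% interval, adjusted p = 0.876). TNFRSF10D, a decoy with a truncated death domain, had 0, 0 and 3 counts in Control and 4, 1 and 6 in RSM3. A count of 0 allows up to 3 counts, or 0.177 and 0.171 CPM in Control replicates 1 and 2, so a difference of this size was not detectable at this depth (adjusted p = 0.612 in the fit without a filter).

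With this rise, the share of TNFRSF10B in the summed per-kilobase level of the 4 TRAIL receptor genes was larger in RSM3. TNFRSF10B made up 71.9%, 69.2% and 69.7% of the sum in Control and 78.2%, 76.7% and 78.3% in RSM3. TNFRSF10A made up 28.6 ± 1.29% and 21.4 ± 1.02%, while its own level was 10.0 ± 0.208 CPM per kilobase in Control and 10.2 ± 0.461 in RSM3. The decoys together remained small: TNFRSF10C held at most 1.59% and TNFRSF10D at most 0.227% in any library. The sum itself went from 35.1 ± 1.13 to 47.7 ± 0.517 CPM per kilobase.

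TNFRSF12A, the TWEAK receptor, a small transmembrane protein that signals through TRAF adaptors and is induced by growth factors and injury in many epithelia, also rose. It stood at 88.9, 94.1 and 76.8 CPM in Control and 110, 113 and 124 CPM in RSM3 (109.8 in the lowest RSM3 library). The groups did not overlap, with Control replicate 3 the lowest and RSM3 replicate 3 the highest. The log2 fold change was 0.42 ± 0.09 (SE), or 1.33-fold with a 95% interval of 1.16 to 1.53 (edgeR adjusted p = 0.0240). This call was less stable than that of TNFRSF10B. It was lost without Control replicate 1, 2 or 3 (log2 fold changes 0.44, 0.48 and 0.34, adjusted p = 0.103, 0.0631 and 0.118), without RSM3 replicate 2 or 3 (0.44 and 0.36, adjusted p = 0.0639 and 0.120), with library size alone (0.36, adjusted p = 0.0613) and with the term for Control replicates 1 and 2 (0.59, adjusted p = 0.0670). Without RSM3 replicate 1 it held (0.45, adjusted p = 0.000133). The fold change was positive in all 16 other settings. With 63.7% GC, its transcripts were the richest in GC of the set, and with each library's trend on GC content and length removed its log2 fold change was 0.44 (adjusted p = 0.00189).

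The abundant death domain receptors TNFRSF21 and TNFRSF1A were not called. TNFRSF21, known from the nervous system and from lymphocyte regulation, was at 368, 388 and 379 CPM in Control and 437, 359 and 352 CPM in RSM3. RSM3 replicate 1 was the highest library and the other RSM3 libraries were the lowest. Its fold change was 1.01, with a 95% interval of 0.885 to 1.15 (adjusted p = 0.955). TNFRSF1A, the receptor through which TNF starts most of its responses, had the same layout: 126, 134 and 131 CPM in Control, and 137, 110 and 106 CPM in RSM3. With all libraries its log2 fold change was −0.15 ± 0.10 (SE, adjusted p = 0.489). Without RSM3 replicate 1 it was −0.26 and called lower (adjusted p = 0.00266), in a fit that called 14.6% of all genes. The part of that library's deviation that followed GC content and length was 0.09 on the log2 scale for TNFRSF1A and 0.01 for TNFRSF21, and with this trend removed from all libraries TNFRSF1A had a log2 fold change of −0.13 (adjusted p = 0.220).

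FAS, which forms the best studied death-inducing complex with FADD and caspase-8, was low and varied within Control. It had 47, 40 and 107 counts in Control and 69, 95 and 74 in RSM3, or 2.78, 2.28 and 5.64 CPM against 5.19, 5.93 and 4.77 CPM. Control replicate 3 lay within the RSM3 range, while Control replicates 1 and 2, the libraries with high TPM1, were below it. The log2 fold change was 0.56 ± 0.29 (SE), and the 95% interval of the fold change, 0.951 to 2.29, included no change (adjusted p = 0.353). The result turned on Control replicate 3: without it the log2 fold change was 1.07 and called (adjusted p = 0.0414), whereas with the term for Control replicates 1 and 2 it was −0.09 (adjusted p = 0.940). The part of what sets those libraries apart in this value was not tested.

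CD40 and TNFRSF1B, receptors without a death domain, were also low. CD40, a costimulatory receptor of antigen-presenting cells that many carcinoma lines express too, was at 5.14, 5.92 and 6.06 CPM in Control and 5.57, 5.99 and 4.58 CPM in RSM3. The groups overlapped, with a 95% interval of the fold change of 0.716 to 1.24 (adjusted p = 0.861). TNFRSF1B was at 1.60, 2.39 and 3.37 CPM in Control and 3.61, 1.31 and 3.29 CPM in RSM3, so that each group spanned a range of more than 2-fold. Its interval, 0.628 to 1.92, was accordingly wide (adjusted p = 0.897).

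Whether a receptor changed more than another was tested on the ratio of their counts within each library, for 6 pairs. All 6 include TNFRSF10B, so the ratios share its rise and are not separate results. The log2 ratio of TNFRSF10B to TNFRSF10A was 2.20, 2.02 and 2.09 in Control and 2.71, 2.57 and 2.72 in RSM3, a difference of 0.56 with no overlap. The ratio of TNFRSF1A to TNFRSF10B fell by 0.74 on the log2 scale, from 0.04 ± 0.12 to −0.71 ± 0.20. That of TNFRSF21 to TNFRSF10B fell by 0.58, from 1.57 ± 0.11 to 0.99 ± 0.18. In each of these 3 pairs all RSM3 libraries lay on the same side of all Control libraries (exact permutation, two-sided p = 0.1, which is the least that 3 against 3 allows, and 0.2 adjusted over the 6 pairs), so none could reach 0.05. TNFRSF12A relative to TNFRSF10B differed by −0.17 (exact p = 0.2, 0.24 adjusted), and FAS relative to TNFRSF10B by 0.09 (exact p = 0.9, 0.9 adjusted), both with overlapping groups. The ratio of TNFRSF10B to TNFRSF10D rested on 0 to 6 counts of the decoy and on the value of 0.5 added to each count, and moved from −1.55 to −0.19 when 5 was added instead (exact p = 0.2, 0.24 adjusted, and 0.8 with 5 added).

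**Figure D3:**
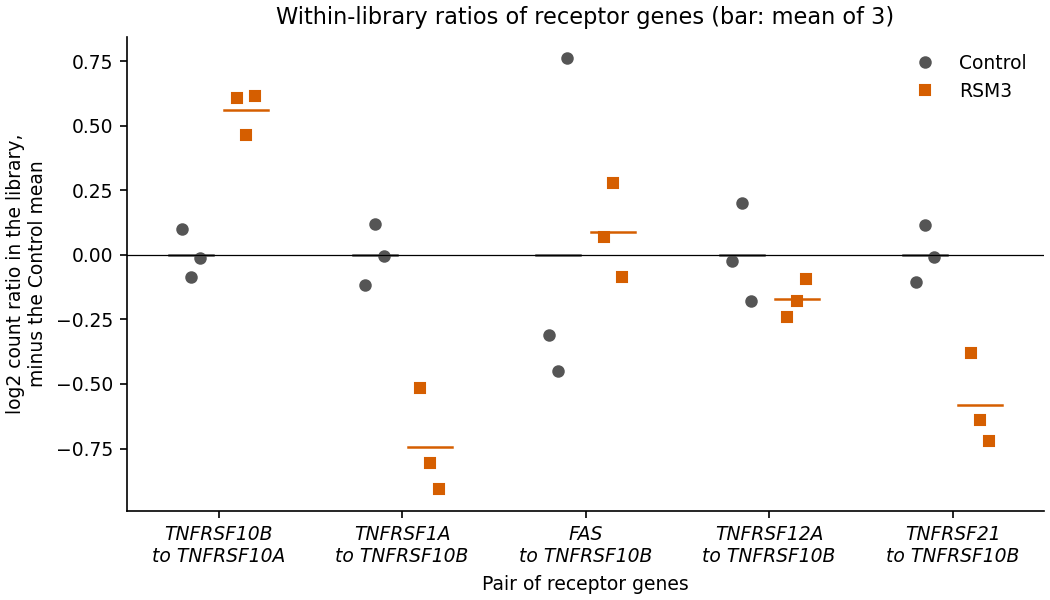
Log2 ratio of the counts of a pair of receptor genes in each library, minus the Control mean of that ratio; circles are Control, squares RSM3 and short bars the mean of 3 libraries. TNFRSF10B separates the groups relative to TNFRSF10A, TNFRSF1A and TNFRSF21, and the groups overlap for FAS and TNFRSF12A.

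The 4 TRAIL receptor genes are neighbours within 205 kb of chromosome 8 (23020133 to 23225126, GRCh38, GENCODE 29), in the order TNFRSF10B, TNFRSF10C, TNFRSF10D and TNFRSF10A. TNFRSF10B lies at 23020133 to 23069179 on the minus strand, and TNFRSF10A at 23190452 to 23225126 on the same strand. The rise was seen at TNFRSF10B and not in the tested genes at either end of the cluster. RHOBTB2, which overlaps 67 bases of TNFRSF10B exons on the opposite strand, had a log2 fold change of −0.04 (adjusted p = 0.889), and AC100861.1, a non-coding transcript that overlaps TNFRSF10A, 0.07 (adjusted p = 0.925). Within the cluster, the low transcript AC107959.3 had 0.58 (adjusted p = 0.459). Of 14 tested genes next to the cluster or to the other 6 members, none was called. HCFC1R1, which lies 237 bases beyond TNFRSF12A on chromosome 16, had a log2 fold change of 0.36 (adjusted p = 0.208). TNFRSF12A itself lies at 3018445 to 3022383 on the plus strand of that chromosome.

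Annotation shows where counts of the members may be shared with other genes. In 9 of the members no stretch of 100 bases in the annotated transcripts recurs in a transcript of another gene. In TNFRSF10C 28.9% of such stretches do, in AC107959.4 and AC107959.5, which overlap it on the same strand, so its low counts are uncertain. The longest exonic overlap on the opposite strand was 380 bases of FAS with ACTA2, a gene whose mean was 0.672 CPM in Control against 0.623 in RSM3. TNFRSF10A shares 266 bases with AC100861.1, which was at 4.37 CPM in Control and 4.54 in RSM3. It shares 224 bases with its antisense gene TNFRSF10A-AS1, which was at 1.65 and 1.80 CPM. The libraries mark strand, but the strand setting of the counting is not stated.

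Genes with the most similar pattern to the called members were taken from 10654 protein-coding genes, by the Pearson correlation of log2 CPM over the 6 libraries. These values describe 6 points in 2 groups, so any gene with an even rise ranks high. For TNFRSF10B the closest were CD274, the gene of the checkpoint ligand PD-L1, UBE2C, a ubiquitin-conjugating enzyme of mitosis, NAV3, a microtubule-binding navigator protein, LRRFIP2 and CDKN1A, the cell cycle inhibitor p21, with r of 0.995 to 0.997. All of these rose (the call of LRRFIP2 was lost without RSM3 replicate 3 or any 1 of the Control libraries, and those of CD274, UBE2C and LRRFIP2 with the term for Control replicates 1 and 2), CD274 from 8.95 to 16.3 CPM and CDKN1A from 22.5 to 54.5 CPM. For TNFRSF12A they were RIPK2, a kinase of innate sensing, STAMBPL1, a deubiquitinase, ODC1, which starts polyamine synthesis, CNN3, an actin-binding calponin, and ATP5F1B, a subunit of mitochondrial ATP synthase, with r of 0.987 to 0.994. Of these, STAMBPL1 and ODC1 were called (adjusted p = 0.0472 and 0.0340), and both calls were lost without any 1 of the 5 libraries besides RSM3 replicate 1, with library size alone (0.0829 and 0.0801) and when Control replicates 1 and 2 had a term of their own (0.154 and 0.195).

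Transcripts of the receptors' ligands were scarce in these cultures, except for that of TWEAK. Of 6 ligand genes, only TNFSF12 (TWEAK) and TNFSF10 (TRAIL) passed the filter, and neither was called. TNFSF12 had 11.2 ± 0.966 CPM in Control against 9.50 ± 0.692 in RSM3 (adjusted p = 0.421), and TNFSF10 at 2.89 ± 0.681 and 2.80 ± 1.23 CPM (adjusted p = 0.942). FASLG, TNF and LTA did not pass the filter, and CD40LG had no count in any library.

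Genes that act downstream of the receptors were counted list by list, against 4.20% called among all tested genes. Of 13 adaptor and complex genes, BIRC2 and BIRC3, which encode the cIAP ubiquitin ligases recruited by TRAF2, rose and none fell, with a list median of 0.12. BIRC3 rose by 2.34 ± 0.14 (SE) and BIRC2 by 1.09 ± 0.09 on the log2 scale (edgeR adjusted p = 3.11e-06 and 3.46e-05). FADD, CASP8 and CFLAR, the adaptor, initiator caspase and caspase inhibitor of the death-inducing complex, were not called, with log2 fold changes of 0.29, −0.05 and 0.16. The value of FADD rested on a low Control replicate 3 (35.6, 41.1 and 17.2 CPM in Control, 38.3, 37.6 and 38.9 CPM in RSM3). Of 13 genes of the ubiquitin and kinase steps, TNFAIP3 (A20) and TNIP1, which limit TNF receptor signalling, rose by 0.96 ± 0.12 and 0.76 ± 0.12 (adjusted p = 0.000520 and 0.00287), and the list median was 0.04. The largest change of this list, that of the low gene RNF31, went down and did not pass (log2 fold change −1.26, edgeR adjusted p = 0.0698). With GC content and length corrected 4 of the list were called higher and 1 lower, and without RSM3 replicate 1, 3 higher and 1 lower. The call of TNIP1 was lost with the term for Control replicates 1 and 2 (0.71, adjusted p = 0.144). Of 8 NF-κB subunit and inhibitor genes, 5 rose, with a median of 0.86: RELB (2.07), NFKBIA (1.38), NFKB2 (1.12), NFKBIE (0.96) and NFKB1 (0.76), all with an adjusted p of 0.00287 or less. RELA, REL and NFKBIB were not called, with log2 fold changes of 0.14, −0.13 and 0.44.

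Among 12 genes of apoptosis execution, which include caspases, mitochondrial factors and the caspase inhibitor XIAP, 0 were called by edgeR's quasi-likelihood test, and 0 by DESeq2 or limma voom. At an unadjusted p under 0.05, 2 were higher and 1 lower, and the median was −0.07. No difference between the lists was tested. With GC content and length corrected 1 was called higher, and without RSM3 replicate 1, 2 were called higher and 1 lower. CYCS (cytochrome c) had 219 ± 9.59 CPM in Control against 223 ± 31.9 in RSM3 (adjusted p = 0.925), and BAK1, which permeabilises mitochondria, at 97.2 ± 6.34 and 82.9 ± 5.04 CPM (adjusted p = 0.168). MLKL, the pore-forming effector of necroptosis, was at 27.2 ± 1.89 CPM in Control and fell to 19.0 ± 2.11 CPM (−0.52 ± 0.12 on the log2 scale, adjusted p = 0.0246), and leaving out a library ended the call for each one except RSM3 replicate 1, as did the term for Control replicates 1 and 2 (adjusted p = 0.236). RIPK3, the kinase that activates it, did not pass the filter. ADAM10 and ADAM17, proteases that shed receptor ectodomains, were not called (adjusted p = 0.834 and 0.873).

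**Figure D4:**
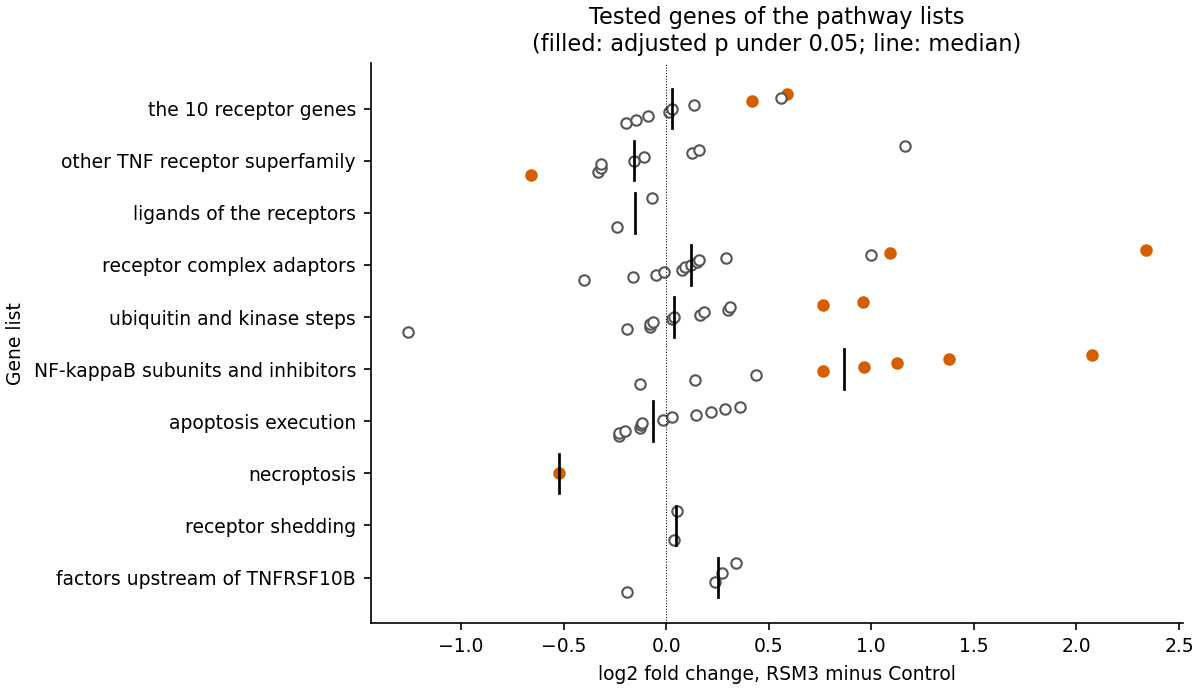
Log2 fold change (RSM3 minus Control) of each tested gene of the receptor set and of the pathway lists; filled symbols have an adjusted p under 0.05, and the vertical line in each list is its median. The list of NF-κB subunits and inhibitors has 5 filled symbols and a median of 0.86, and the apoptosis execution list has none.

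Of 4 factors known to act on the TNFRSF10B promoter, edgeR, DESeq2 and limma voom called 0, and at an unadjusted p under 0.05 edgeR had 2 higher and 1 lower. SP1 had 162 ± 4.75 CPM in Control against 142 ± 1.26 in RSM3 (adjusted p = 0.181), and ATF4, which acts with DDIT3 (CHOP) under stress, at 117 ± 7.77 and 138 ± 14.1 CPM (adjusted p = 0.188). With GC content and length corrected, 2 of the 4 were called higher, ATF4 among them (log2 fold change 0.24, adjusted p = 0.0247).

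Of 19 other receptor genes of the superfamily 9 were tested, and the 1 that was called fell: TNFRSF25, or DR3, a death domain receptor of the ligand TL1A. It went from 35.1 ± 3.14 to 22.2 ± 1.57 CPM, with 655, 582 and 633 counts in Control and 277, 349 and 371 in RSM3, and the groups did not overlap. Its log2 fold change was −0.66 ± 0.11 (SE, edgeR adjusted p = 0.00408), and the call was lost with the term for Control replicates 1 and 2 (−0.59, adjusted p = 0.141). The median of the 9 was −0.16. Other settings gave more calls: 1 higher and 2 lower with DESeq2 or with GC content and length corrected, 1 higher and 1 lower with no filter (18 genes tested), and 1 higher and 4 lower without RSM3 replicate 1. TNFRSF9, or 4-1BB, had 17, 32 and 34 counts in Control and 40, 83 and 34 in RSM3, a log2 fold change of 1.16 that did not pass (adjusted p = 0.0934).

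**Figure D5:**
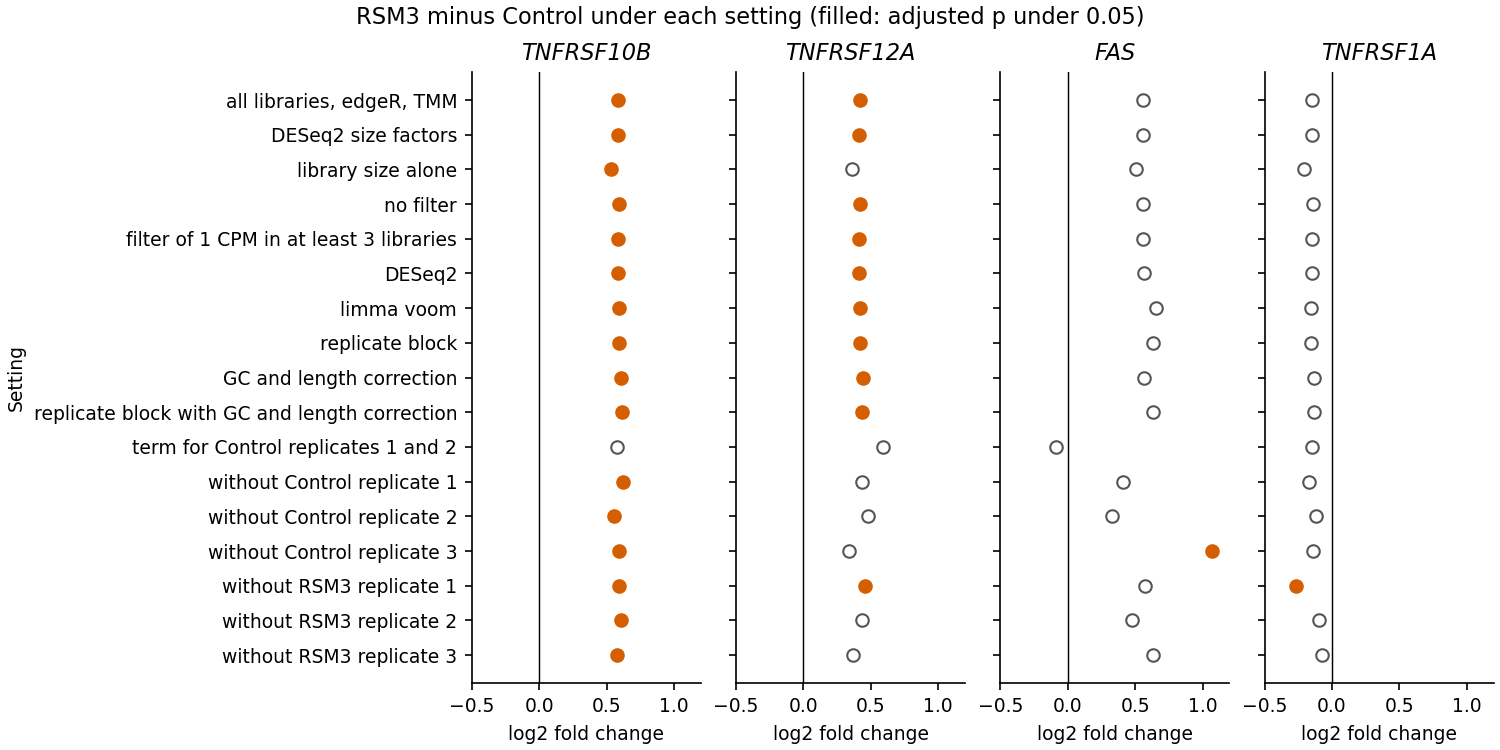
Log2 fold change (RSM3 minus Control) of TNFRSF10B, TNFRSF12A, FAS and TNFRSF1A in the fit with all libraries and in 16 other settings; filled symbols have an adjusted p under 0.05. TNFRSF10B stays between 0.53 and 0.62, FAS runs from −0.09 to 1.07, and TNFRSF1A is called only without RSM3 replicate 1.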

How the data were processed

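The authors deposited whole-number read counts per gene for 6 libraries, not normalised. Per the submitters' processing notes, fastp, STAR (2.7.1a), featureCounts, DESeq2 and hg38 were used, with no role or order given. The sources used here do not give the annotation release, the strand setting or the treatment of reads that map to several places. Libraries were strand-marked with dUTP after poly(A) selection and read in pairs, per the labels' protocols. Pairs of libraries of a group differed by more than sampling noise (chi-square per degree of freedom 3.29 to 19.5), so all 6 were kept.

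Genes were filtered with filterByExpr (minimum count 10), leaving 15773, and RSM3 was compared with Control by edgeR's quasi-likelihood test (4.0.16, R 4.3.3) with TMM factors and robust dispersions, at an adjusted p under 0.05. CPM are TMM-normalised. Standard errors came from the F statistic, and 95% intervals from the t distribution with the fit's degrees of freedom. Positions, exonic lengths and GC content came from GENCODE 29, which covered 99.1% of tested genes. On simulated counts with known changes, the share of false calls ran above the nominal 0.05 with edgeR, DESeq2 and voom alike, so calls close to the threshold are less certain than their adjusted p. Alternatives were DESeq2 (1.42.0), limma voom (3.58.1), other scalings and filters, a replicate block, loess correction for GC content and length, a term for Control replicates 1 and 2, and leaving out each library. Intervals and limits on 0 counts cover counting error or these libraries' spread only. All members are named, with the 4 smallest adjusted p among called genes of each list or, with none called, the 2 highest levels, the 5 genes most like each called member (mean of at least 5 CPM) and neighbours (FADD, CASP8, CFLAR, RNF31, NFKBIE, RIPK3, TNFRSF9, DDIT3, RELA, REL, NFKBIB, XIAP, FASLG, TNF, LTA, CD40LG, TPM1 and the markers were added after their values were seen). Members, lists, the GC correction and the term were chosen with earlier results of these data known.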

Additional observations from a re-analysis of the deposited data

How the results depend on the processing

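Beside 2 members called higher and 0 called lower, library size alone gave 1 higher, and a term for Control replicates 1 and 2 gave 0. Leaving out a library gave 1 to 2 higher and 0 to 1 lower. Some fold changes of genes that were not called changed sign. Scaling by library size alone shifted the all-gene median from −0.0048 to −0.062 and gave log2 fold changes of −0.028 for TNFRSF10A, −0.045 for TNFRSF21, −0.026 for CYCS, −0.00088 for ADAM10 and −0.019 for ADAM17. With the term they were −0.31 for TNFRSF1B, −0.090 for FAS, −0.026 for CYCS, −0.14 for ADAM10, −0.056 for ADAM17 and 0.0055 for RHOBTB2. Leaving out a library gave ranges of −0.0073 to 0.053 for TNFRSF10A, −0.38 to 0.16 for TNFRSF10C, −0.10 to 0.48 for TNFRSF1B, −0.089 to 0.074 for TNFRSF21, −0.17 to 0.020 for CD40, −0.47 to 0.13 for TNFSF10, −0.058 to 0.14 for CYCS, −0.0038 to 0.16 for ADAM10, −0.0033 to 0.089 for ADAM17, −0.12 to 0.017 for RHOBTB2 and −0.14 to 0.47 for the ratio of FAS to TNFRSF10B. The cause was not tested.

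Over all genes, 488 rises and 174 falls became 1189 and 454 with GC content and length corrected, 100 and 18 with the term, 1447 and 946 without RSM3 replicate 1, and 177 and 37 without Control replicate 2. Library size alone gave 308 rises and 254 falls. Same-numbered libraries did not deviate together (correlations 0.03, −0.02 and 0.04), and not every library correlated best with its own number. With the replicate block 2 members were called higher and 0 lower, with 467 rises and 186 falls over all genes, and TNFRSF10B stood at 0.59. The calls of STAMBPL1 and ODC1 were lost under it (adjusted p = 0.0680 and 0.0676). With the block and the GC and length correction together, 1 gene of apoptosis execution was called higher and 1 lower. Few counts limit TNFRSF10C, TNFRSF10D and TNFRSF1B. FAS was low too, and its value is limited by the spread between the Control libraries (47, 40 and 107 counts).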
